A study of Homo sapiens with 6 samples.

Results

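The G2-M and mitosis genes described here are 44 genes whose mRNA and protein are used between the end of DNA replication and the separation of daughter cells. They were taken as a list of gene names, drawn up with earlier results of these data known though the rule itself reads no measured value, and each was matched by its name to 1 row of the deposited count table. All 44 were found among the 60835 gene names of that table. They fall into kinases, cyclins with their partners, kinesins, kinetochore and chromosomal passenger genes, checkpoint and anaphase-promoting complex genes, spindle and cytokinesis genes, chromosome structure genes and transcription factors.

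RNA-seq was done on SW620, an established colon cancer cell line, in 6 libraries. The tested cells (labelled shDNM1, genotype DNM1 knockdown, batch_B, 3 libraries) stably carried a vector directed at DNM1, the gene of the vesicle-cutting GTPase dynamin 1, and the others (labelled shControl, genotype WT, batch_A, 3 libraries) carried a control vector. Both were grown in high-glucose medium with serum. The comparison addresses which mRNAs differ between cells with the vector directed at DNM1 and cells with the control vector. Batch and vector cannot be told apart, because each label of one goes with a single label of the other. No label says whether libraries of a set came from separate cultures or clones, so the p-values reflect library-to-library spread alone, and that spread may be technical. Libraries held 12844534 to 13537519 counts. The chi-square per gene between pairs of libraries was 3.51 to 7.13 within shDNM1, 2.28 to 3.26 within shControl and 16.2 to 19.9 between them. DNM1 itself stood at 126, 97.8 and 125 CPM (counts scaled to a common library total, with TMM factors) in the libraries labelled shDNM1, against 127, 127 and 133 CPM in those labelled shControl. All 3 shDNM1 values were below all 3 shControl values, but the log2 fold change of -0.15 (SE 0.083) did not pass the test (adjusted p = 0.189). It passed without shDNM1 replicate 1 (log2 fold change -0.20, adjusted p = 0.0399), and without shDNM1 replicate 2 it was -0.037 (adjusted p = 0.718). The count table therefore did not show a clear loss of DNM1 mRNA, and sets are called by their labels throughout. Of the intestinal epithelial markers, 7 of 10 had a mean of 1 CPM or more in at least 1 set, with a summed level of 9917 to 11232 CPM in shDNM1 and 8558 to 9349 CPM in shControl. KRT8 made up most of that sum, and CDX1 was at 0. Most epithelial markers that passed were higher: KRT8 at 1.2-fold (adjusted p = 0.00408), KRT18 at 1.23-fold (0.00345) and KRT19 at 1.24-fold (0.00276). CDH1 at 1.13-fold (0.0441) and CDX2 at 2.47-fold (1.66e-06) were higher too. EPCAM alone was lower, at 0.886-fold (adjusted p = 0.0288). Fibroblast markers summed to 42.6 to 57.2 CPM in shDNM1 and 31.3 to 38.7 CPM in shControl, with 3 of 6 at a mean of 1 CPM or more and COL3A1 at 0. LUM at 1.39-fold (adjusted p = 0.0121) and PDGFRB at 2.66-fold (0.000661) were higher. Leukocyte markers summed to 5.36 to 7.73 CPM in shDNM1 and 5.32 to 6.36 CPM in shControl, with 2 of 6 at that level, LYZ lower at 0.45-fold (adjusted p = 0.00256) and CSF1R higher at 3.51-fold (0.000367), while CD3E was at 0. Endothelial markers summed to 17.9 to 22.8 CPM in shDNM1 and 16.9 to 20.2 CPM in shControl, with 2 of 4 at that level and KDR at 0. VWF was higher, at 1.41-fold (adjusted p = 0.049). The part of these differences in the results below was not tested.

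Entry into mitosis is driven by CDK1 bound to B-type cyclins, which CDC25 phosphatases switch on and which Aurora and Polo-like kinases assist. Kinesins and microtubule-binding proteins then build the spindle, kinetochores attach chromosomes to it, and the spindle checkpoint holds back the anaphase-promoting complex until every chromosome is attached. Most of these genes are transcribed late in the cell cycle, through the cell cycle genes homology region (CHR) bound by the MuvB complex with MYBL2 and FOXM1, and through CCAAT boxes bound by NF-Y.

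Promoter stretches are shown for 3 members that were higher, 2 that were lower and 1 that did not pass the test, so that the shared elements can be read beside the values that follow. Each runs from 120 bases before to 29 bases after an annotated start (0 being the first transcribed base), in the sense of the gene, from RefSeq on GRCh38.p14. Capitals mark TTTGAA or its reverse complement TTCAAA (the CHR letters) and CCAAT or its reverse complement ATTGG. The letters TTTAAA were searched too but are not marked, and among these stretches only that of PLK1 held them, at -88. The stretches are chr20:3796190-3796339 (+ strand, CDC25B), chr16:23678769-23678918 (+ strand, PLK1), chr15:69414229-69414378 (+ strand, KIF23), chr1:37692396-37692545 (+ strand, CDCA8), chr5:138331775-138331924 (- strand, CDC25C) and chr15:59105026-59105175 (+ strand, CCNB2). Those of CDC25B and CDC25C are each 1 of 4 annotated windows of the gene. The window shown was chosen for its CHR matches within 120 bases before the start or, failing any, for other searched letters there. The elements seen in the stretches of CDC25B and CDC25C thus follow in part from that choice.
CDC25B: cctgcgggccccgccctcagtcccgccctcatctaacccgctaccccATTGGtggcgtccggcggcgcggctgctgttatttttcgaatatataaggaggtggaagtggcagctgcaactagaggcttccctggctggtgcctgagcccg
PLK1: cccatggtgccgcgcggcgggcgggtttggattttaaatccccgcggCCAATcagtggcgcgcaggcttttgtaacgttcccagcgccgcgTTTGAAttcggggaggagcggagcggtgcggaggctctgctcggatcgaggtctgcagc
KIF23: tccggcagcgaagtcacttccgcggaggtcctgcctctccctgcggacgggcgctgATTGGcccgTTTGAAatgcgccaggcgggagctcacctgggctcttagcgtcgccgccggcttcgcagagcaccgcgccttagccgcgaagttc
CDCA8: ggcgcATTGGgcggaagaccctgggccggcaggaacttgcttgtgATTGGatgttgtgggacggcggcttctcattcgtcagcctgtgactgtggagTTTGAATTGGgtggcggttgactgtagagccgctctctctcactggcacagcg
CDC25C: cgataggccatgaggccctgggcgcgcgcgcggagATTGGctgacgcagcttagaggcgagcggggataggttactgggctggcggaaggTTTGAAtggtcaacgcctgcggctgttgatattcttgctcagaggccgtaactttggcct
CCNB2: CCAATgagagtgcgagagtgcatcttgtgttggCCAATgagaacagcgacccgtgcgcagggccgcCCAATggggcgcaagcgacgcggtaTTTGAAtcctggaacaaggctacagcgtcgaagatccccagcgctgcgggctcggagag

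PLK1, KIF23, CDCA8, CDC25C and CCNB2 carried both elements in these stretches, and the CDC25B stretch held a CCAAT box at -73 with no CHR letters. In CDCA8 the CHR at -23 and the CCAAT match at -18 overlapped by 1 base. Windows from 250 bases before to 50 bases after the start were held for 37 of the 44 members, as 47 windows. AURKA, TTK, BIRC5, UBE2C, TPX2, CDCA2 and FOXM1 were not among them. On either strand, the CHR letters stood in 63.8% of the member windows and 15.2% of all 35116 windows of that length, and CCAAT stood in 74.5% of the member windows and 34.6% of all windows. Both stood in 53.2% of the member windows and 5.9% of all windows. The letters TTTAAA, not counted as CHR letters here, stood in 31.9% of the member windows and 12.2% of all windows. CCNB1, KIF20A and PTTG1, counted as without the CHR letters, held TTTAAA at -30, -41 and -29. Other members without the CHR letters held it elsewhere or not at all. A CHR starting 60 to 10 bases before the start, a span chosen after the positions were seen, was found for 16 members, in 34% of their windows against 2.55% of all windows. Such matches describe letters and not bound sites. By direction of change, the CHR letters were present anywhere in a window for 2 of the 3 higher members with a window (KIF23 and PLK1, not CDC25B). They were present for 5 of the 7 lower ones (CDC25C, CDCA8, CENPF, NUF2 and TOP2A, not CCNA2 or MYBL2) and for 19 of the 26 that did not pass. No test was made of these shares. Of the members that passed and had a window (TPX2 and FOXM1 had none), only KIF23, PLK1, CDC25C and CDCA8 had a CHR in the span of 60 to 10 bases before the start. The matches of NUF2 and CENPF lay after the start, at 16 and 40, and those of TOP2A at -194 and -151.

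**Figure D1:**
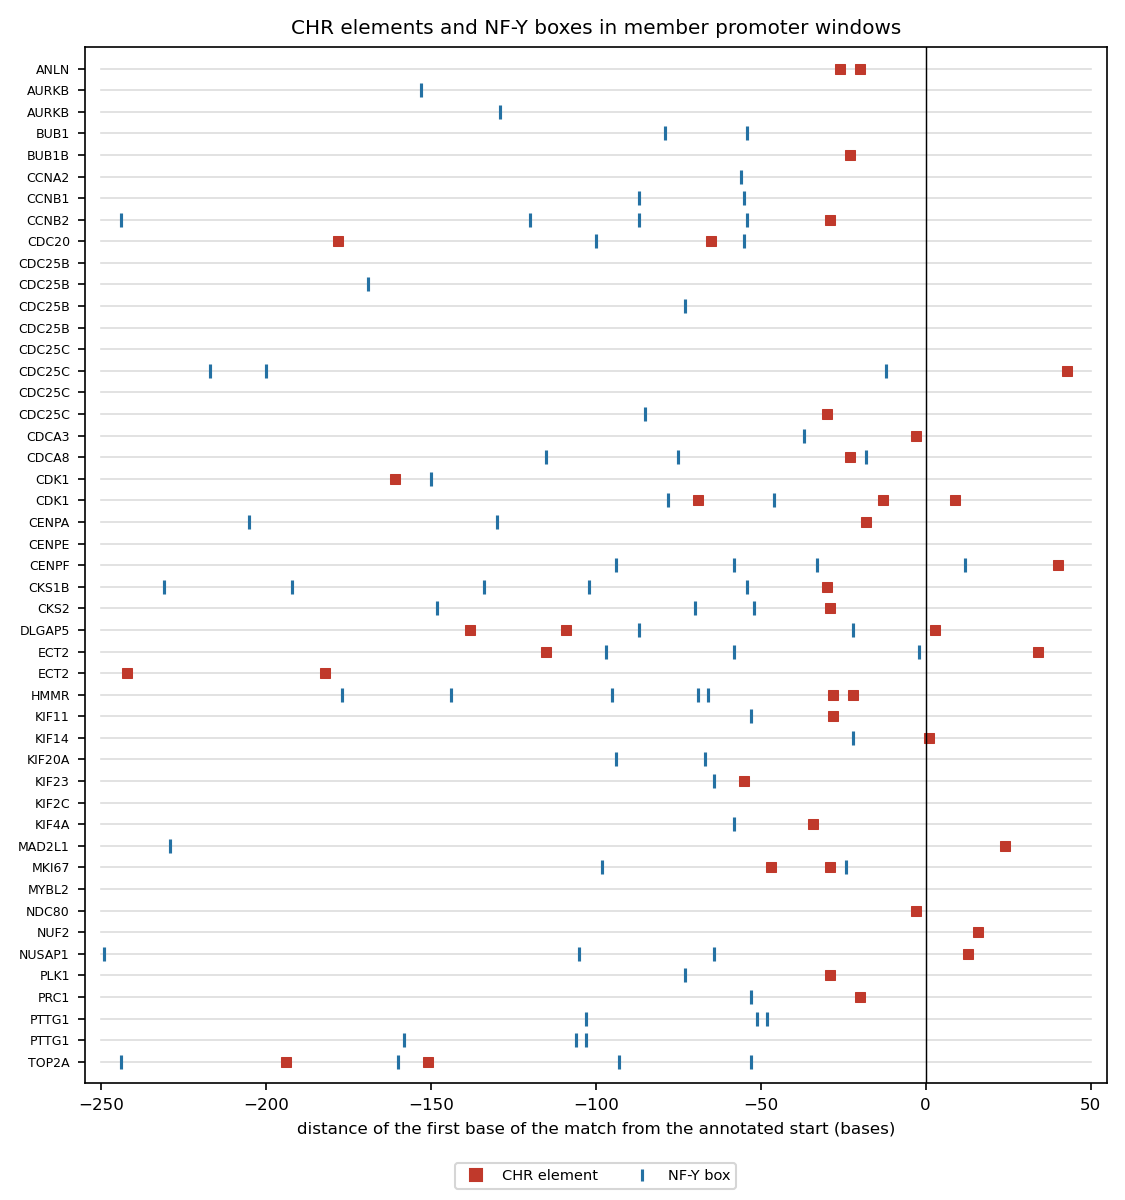
Positions of CHR letters (squares) and CCAAT boxes, drawn as NF-Y boxes (bars), on either strand in the 47 promoter windows of 37 members; the horizontal axis is the distance in bases from the annotated start, and each grey line is 1 window. Squares gather just before the start, where 16 members have one, and lines without a symbol hold neither element.

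In the libraries labelled shDNM1, 4 members were higher than in shControl (CDC25B, PLK1, KIF23 and TPX2), 8 were lower (CDCA8, CDC25C, NUF2, TOP2A, FOXM1, MYBL2, CCNA2 and CENPF), and 31 did not pass the test. NUSAP1 was too low to be tested, at 47 counts over the 6 libraries. The differences were small: 42 of the 43 tested members differed by less than 1.5-fold, the exception being CDC25B, and log2 fold changes ran from -0.48 to 0.69. The 12 that passed make 27.9% of those tested, beside 31.9% of the 16744 genes tested (15.6% higher and 16.2% lower) and 42.4% of the 8840 genes with an average log2 CPM of at least 4, so the share of members was no larger than the background. The median log2 fold change was 0.008 for the members and -0.013 for all genes, and the median size of a change without its sign was 0.12 for the members and 0.24 for all genes. The groups did not overlap for 15 of the 43 tested members (7 with shDNM1 above and 8 with shDNM1 below). This is a smaller share than the 44.3% of all genes tested. In 40 of 43 members the 95% interval of the change lay within 1.5-fold in either direction, the others being CDC25B, CDCA8 and PRC1. Values are edgeR quasi-likelihood results with Benjamini-Hochberg adjustment over all genes tested. In bulk RNA, a change in the number of cells in G2 or mitosis and a change in RNA per such cell cannot be told apart.

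The counts depended on single libraries. Without shDNM1 replicate 1, 8 members were higher and 11 lower, with AURKB, CDC20, CENPA and MKI67 added above and CENPE, ECT2 and HMMR added below. Without shDNM1 replicate 3, 3 were lower, and without shControl replicate 3, 5 were lower. CDC25B, PLK1, CDCA8 and TOP2A passed in the same direction under all 18 alternatives tried, and no member that passed changed sign under any of them.

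**Figure D2:**
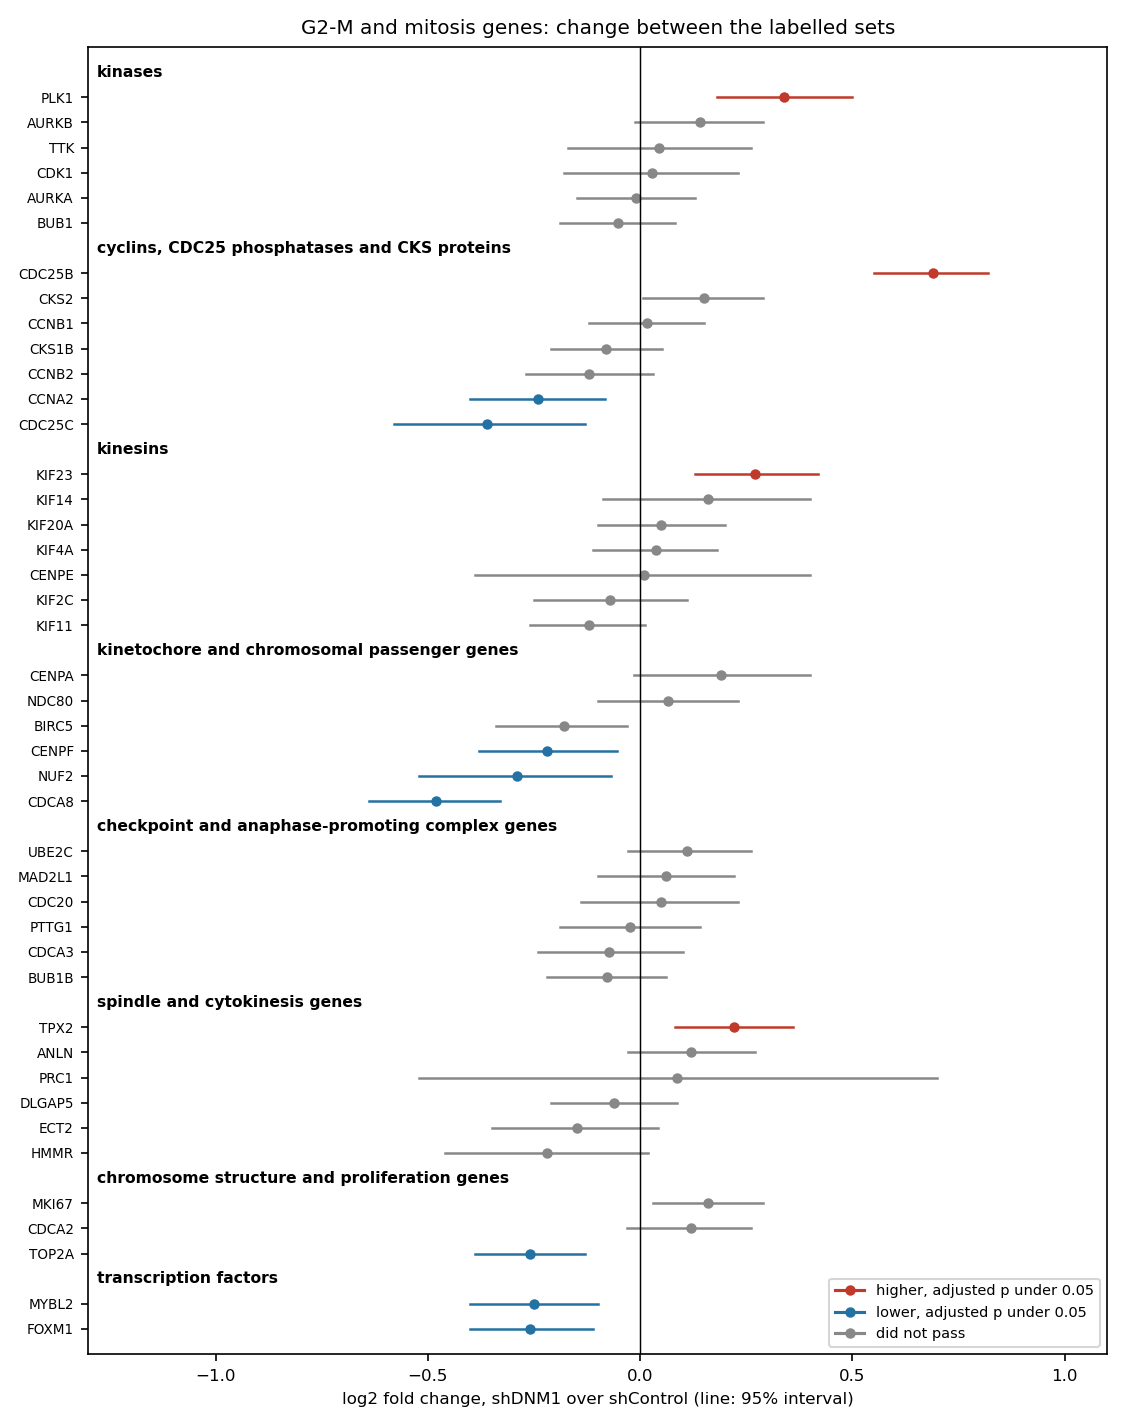
Log2 fold change (shDNM1 over shControl, horizontal axis) of the 43 tested members, grouped by role, with 95% intervals from the edgeR fit; coloured points passed the test. Most intervals cross 0, CDC25B lies farthest to the right at 0.69, and CDCA8 lies farthest to the left at -0.48.

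Levels per transcript length, in the deposited TPM averaged over the 6 libraries, spread widely among the members. The median was 97 TPM, and 20 members were above 100 TPM. CDC25B (536 TPM), TOP2A (483 TPM), CCNB1 (451 TPM), CKS2 (416 TPM) and CDK1 (355 TPM) had the highest means over the 6 libraries. The order differed by set: CDC25B came first in shDNM1 (651 TPM, with TOP2A at 431 TPM and CCNB1 at 444 TPM), and TOP2A came first in shControl (536 TPM, with CCNB1 at 458 TPM and CDC25B at 421 TPM). At the other end were CDC25C (30.4 TPM), the large kinetochore kinesin CENPE (15.7 TPM), PRC1 (1.66 TPM) and NUSAP1 (0.571 TPM). The gap below CENPE set PRC1 and NUSAP1 apart from the rest. NUSAP1, a microtubule-binding protein of the spindle, overlaps OIP5-AS1 on the same strand, which held 12359 counts, and PRC1, which bundles the microtubules of the central spindle, had 177 counts and overlaps PRC1-AS1 on the other strand, which had 147. How reads over shared sequence were assigned is not given in the sources used here, so the levels of both are uncertain.

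Among the 6 kinases, 1 was higher and none was lower. PLK1, the Polo-like kinase of centrosome maturation and mitotic entry (GRCh38 chromosome 16, 23677656 to 23690367, ENSG00000166851), had 108, 134 and 129 CPM in shDNM1, against 93.4, 101 and 98.2 CPM in shControl. Every shDNM1 library was above every shControl library, with replicate 1 the lowest of its set. The means were 124 ± 13.9 CPM in shDNM1 and 97.5 ± 3.85 CPM in shControl (SD, n = 3 each), a log2 fold change of 0.34 (SE 0.078, adjusted p = 0.00252), or 1.27-fold. CDK1, the kinase that starts mitosis and the most abundant kinase of the list per length, had 283, 216 and 201 CPM in shDNM1, against 236, 209 and 241 CPM in shControl. The sets overlapped and shDNM1 replicate 1 stood above all other libraries. Its log2 fold change was 0.029 (95% interval -0.18 to 0.23, adjusted p = 0.854). AURKA, which acts at spindle poles, TTK and BUB1, which act in the checkpoint at kinetochores, and AURKB, the kinase of the chromosomal passenger complex, had log2 fold changes of -0.011, 0.045, -0.053 and 0.14, and none of them passed.

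The cyclins, CDC25 phosphatases and CKS proteins held the largest change of the list, and it went against the other CDC25 member. CDC25B, the phosphatase that removes inhibitory phosphates from CDK1 early in mitotic entry (chromosome 20, 3786772 to 3806121, ENSG00000101224), had 642, 722 and 719 CPM in shDNM1, against 429, 447 and 418 CPM in shControl. The lowest shDNM1 library was well above the highest shControl library. The means were 694 ± 45.1 CPM in shDNM1 and 431 ± 14.8 CPM in shControl (SD, n = 3 each), a log2 fold change of 0.69 (SE 0.063, 95% interval 0.55 to 0.82, adjusted p = 2.26e-07), or 1.61-fold. CDC25C, a related phosphatase (chromosome 5, 138285269 to 138338355), had 20.4, 18.5 and 18.2 CPM in shDNM1, against 22, 26.3 and 24.8 CPM in shControl. All shDNM1 libraries were below all shControl libraries, and the log2 fold change was -0.36 (SE 0.11, adjusted p = 0.0147). It did not pass without shControl replicate 2 (adjusted p = 0.0769), shControl replicate 3 (0.0569) or shDNM1 replicate 3 (0.0606). CDC25C overlaps FAM53C on the other strand, whose log2 fold change was 0.28 (adjusted p = 0.00549), and it is not stated whether counting used strand.

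CCNA2, the cyclin of S phase and G2 (chromosome 4, 121816444 to 121823883), had 57.3, 66 and 58.5 CPM in shDNM1, against 69.7, 74.5 and 70.5 CPM in shControl. It fell by 0.24 on the log2 scale (SE 0.075, adjusted p = 0.0196) with no overlap, and did not pass without shControl replicate 2 (adjusted p = 0.0862) or shDNM1 replicate 3 (0.0826). CCNA2 overlaps EXOSC9 on the other strand, whose log2 fold change was 0.21 (adjusted p = 0.063). The B-type cyclins did not pass: CCNB1 had 303, 326 and 296 CPM in shDNM1, against 288, 320 and 306 CPM in shControl, a log2 fold change of 0.016 (95% interval -0.12 to 0.15), and CCNB2, whose promoter carries 3 CCAAT boxes and a CHR in the printed stretch, was at -0.12. The CDK-binding proteins CKS1B and CKS2 were at -0.080 and 0.15. CCNB2 and CKS2 did not overlap between the sets although neither passed.

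**Figure D3:**
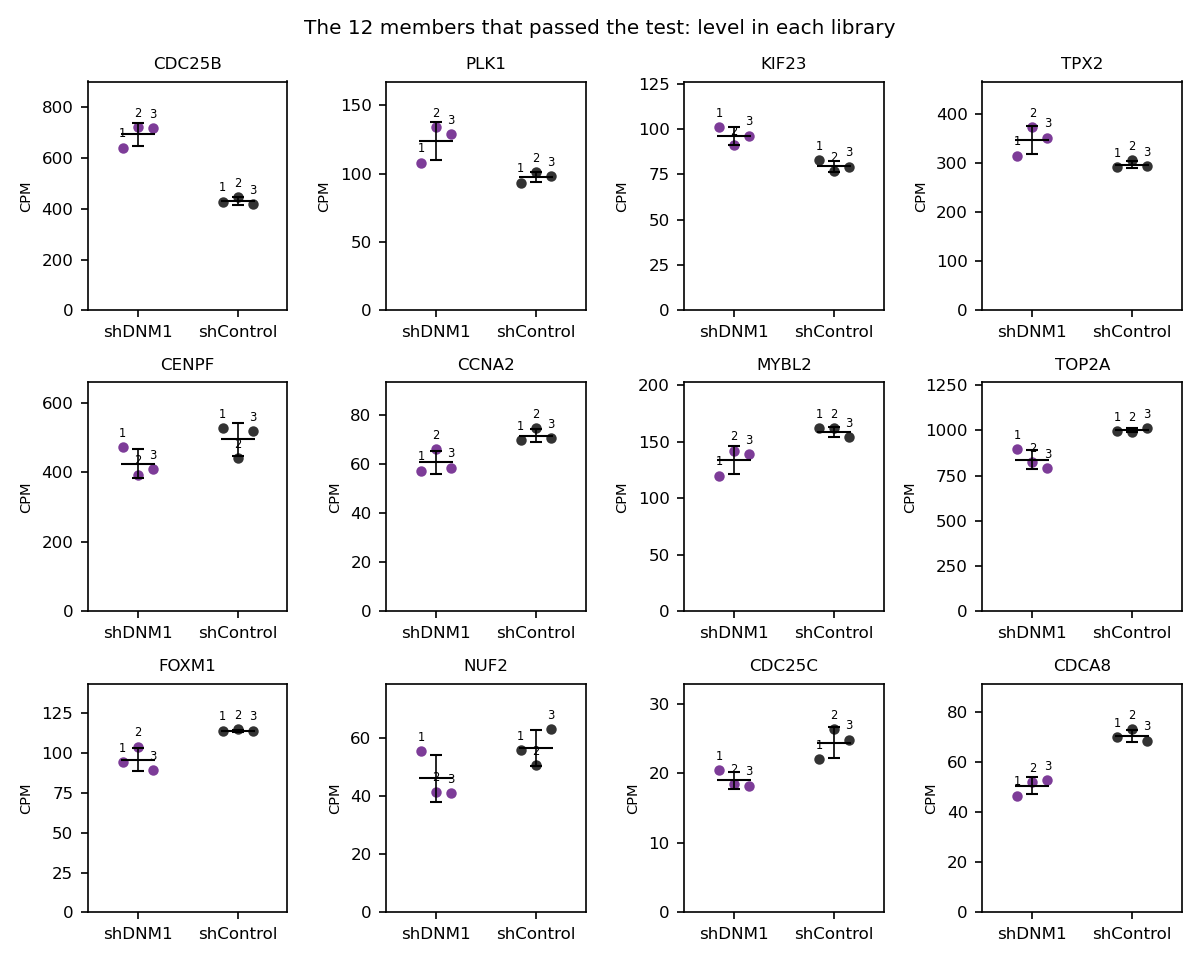
CPM of the 12 members that passed the test in each library (points, with the replicate number above), shDNM1 left of shControl, with the mean and SD of 3 libraries; each panel has its own vertical axis from 0. The sets are apart in 10 of the 12 panels, and in NUF2 and CENPF they overlap.

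Of the 7 kinesins, 1 was higher and none was lower. KIF23, the kinesin of centralspindlin needed for cytokinesis (chromosome 15, 69414246 to 69448427), had 101, 91.1 and 96.4 CPM in shDNM1, against 82.8, 76.8 and 79.2 CPM in shControl. The sets did not overlap, and the log2 fold change was 0.27 (SE 0.068, adjusted p = 0.00475), or 1.21-fold. It did not pass on the log2(TPM + 1) scale (adjusted p = 0.0602). KIF20A, a kinesin of the central spindle, had the highest 6-library mean of the kinesins per length (111 TPM), close to KIF2C (108 TPM), which was above it in shControl (113 against 112 TPM). KIF20A overlaps CDC23 and BRD8 on the other strand. It had 109, 127 and 116 CPM in shDNM1, against 110, 119 and 111 CPM in shControl, at a log2 fold change of 0.050 (adjusted p = 0.626). KIF11, which pushes spindle poles apart, KIF14, which acts in cytokinesis, KIF2C, which takes microtubules apart, and the chromosome-bound KIF4A were at -0.12, 0.16, -0.071 and 0.037. CENPE, which moves chromosomes to the spindle equator, had 66.1, 34.5 and 37.4 CPM in shDNM1, against 57.8, 35.2 and 44.4 CPM in shControl. Replicate 1 was the highest library of both sets. The log2 fold change of 0.008 carried a 95% interval of -0.39 to 0.40, and without shDNM1 replicate 1 it was -0.34 (adjusted p = 0.0355).

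In the kinetochore and passenger genes, 3 of 6 were lower and none was higher. That is 50% of a small group, beside 31.9% of all genes tested and 42.4% of those with an average log2 CPM of at least 4. CDCA8 (borealin), a subunit that places the passenger complex on chromosomes (chromosome 1, 37692481 to 37709719, ENSG00000134690), had 46.6, 52 and 52.8 CPM in shDNM1, against 69.9, 73.1 and 68.5 CPM in shControl. The sets were far apart beside their own spread. The means were 50.5 ± 3.38 CPM in shDNM1 and 70.5 ± 2.37 CPM in shControl (SD, n = 3 each), a log2 fold change of -0.48 (SE 0.074, adjusted p = 7.08e-05), or 0.716-fold. NUF2, of the NDC80 complex that grips microtubules (chromosome 1, 163266576 to 163355764), had 55.5, 41.5 and 41.1 CPM in shDNM1, against 55.9, 50.7 and 63 CPM in shControl. The sets overlapped, with shDNM1 replicate 1 among the shControl values, and the log2 fold change was -0.29 (SE 0.11, adjusted p = 0.0438). CENPF, a large kinetochore protein (chromosome 1, 214603185 to 214664574), had 473, 394 and 409 CPM in shDNM1, against 527, 441 and 518 CPM in shControl. Here too the sets overlapped, and the log2 fold change was -0.22 (SE 0.078, adjusted p = 0.0399). Each of NUF2 and CENPF did not pass in 10 of the 18 alternatives. Without shDNM1 replicate 2, shDNM1 replicate 3, shControl replicate 1 or shControl replicate 3, the adjusted p was 0.146, 0.205, 0.107 or 0.217 for NUF2 and 0.126, 0.155, 0.205 or 0.152 for CENPF. The NUF2 partner NDC80 was at a log2 fold change of 0.065, the centromeric histone CENPA at 0.19 and the passenger subunit BIRC5 (survivin) at -0.18 (adjusted p = 0.0623). CENPA, with 2319 counts over the 6 libraries, overlaps SLC35F6 on the same strand, which held 2589 (log2 fold change 0.075, adjusted p = 0.601). How reads over their shared sequence were assigned is not given.

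None of the 6 checkpoint and anaphase-promoting complex genes passed with edgeR, 0 had an unadjusted p under 0.05, and 0 passed with DESeq2 or limma-voom. Their log2 fold changes lay between -0.079 and 0.11. UBE2C, the ubiquitin-conjugating enzyme of the complex, had the smallest p and the highest TPM of the group, with 109, 118 and 107 CPM in shDNM1 against 98.3, 109 and 101 CPM in shControl. The sets overlapped and the log2 fold change was 0.11 (95% interval -0.028 to 0.26, adjusted p = 0.217). CDC20, which activates the complex and is the target of the checkpoint, was at 0.048. The checkpoint proteins BUB1B and MAD2L1 were at -0.079 and 0.060, PTTG1 (securin), the inhibitor destroyed at anaphase, at -0.023, and CDCA3, which promotes mitotic entry, at -0.073. BUB1B, with 7170 counts, overlaps PAK6 on the same strand, which held 307 (log2 fold change -1.01, adjusted p = 0.00203). Without shDNM1 replicate 1, CDC20 passed with a log2 fold change of 0.17 (adjusted p = 0.0429).

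Of the 6 tested spindle and cytokinesis genes, 1 was higher. TPX2, which activates Aurora A on spindle microtubules (chromosome 20, 31739271 to 31801805), had 315, 373 and 352 CPM in shDNM1, against 292, 306 and 294 CPM in shControl. The sets did not overlap, and the log2 fold change was 0.22 (SE 0.067, adjusted p = 0.0163). It did not pass without shDNM1 replicate 2 (adjusted p = 0.0614), shDNM1 replicate 3 (0.0649), shControl replicate 1 (0.056) or shControl replicate 3 (0.0801). The spindle proteins DLGAP5 and HMMR were at -0.061 and -0.22, the cleavage furrow protein ANLN (anillin) at 0.12, its partner in furrow signalling ECT2 at -0.15 and PRC1 at 0.087 with a 95% interval of -0.52 to 0.70. None of these passed.

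TOP2A, the topoisomerase that untangles chromosomes (chromosome 17, 40388525 to 40417896), had 896, 825 and 792 CPM in shDNM1, against 996, 994 and 1012 CPM in shControl. All shDNM1 libraries were below all shControl libraries, and TOP2A fell by 0.26 on the log2 scale (SE 0.061, adjusted p = 0.00354). MKI67, whose Ki-67 protein coats mitotic chromosomes and marks proliferating cells, had 951, 1089 and 1030 CPM in shDNM1, against 913, 906 and 925 CPM in shControl. Its sets did not overlap either, with shDNM1 above, but the log2 fold change of 0.16 (95% interval 0.031 to 0.29) did not pass (adjusted p = 0.055). The marker most used for proliferation and TOP2A thus had estimates of opposite sign. CDCA2, which brings a phosphatase to chromosomes at mitotic exit, was at 0.12.

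Both transcription factors of the list fell. FOXM1 (chromosome 12, 2857680 to 2877174) had 94.4, 104 and 89.4 CPM in shDNM1, against 114, 115 and 114 CPM in shControl. MYBL2 (chromosome 20, 43667019 to 43716495) had 120, 142 and 139 CPM in shDNM1, against 162, 162 and 154 CPM in shControl. In both genes every shDNM1 library was below every shControl library. The log2 fold changes were -0.26 for FOXM1 (SE 0.068, adjusted p = 0.00756) and -0.25 for MYBL2 (SE 0.07, adjusted p = 0.0103), and FOXM1 did not pass without shDNM1 replicate 3 (adjusted p = 0.0559). On the other strand FOXM1 overlaps RHNO1, whose log2 fold change was -0.45 (adjusted p = 0.00163), and ITFG2, whose log2 fold change was 0.000 (adjusted p = 0.999). Whether any RHNO1 reads were counted in the FOXM1 row was not tested.

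The members also differed among libraries of the same set, and these differences ran with GC content, a pattern chosen after the values were seen and given as a description. Over the 42 members with a mean of at least 5 TPM, the difference of shDNM1 replicate 1 from the mean of the other libraries of its set had a Pearson correlation of -0.76 with the GC content of the longest transcript (Spearman -0.82). Over all 11653 tested genes with the same minimum and a GC value it was -0.33. The other libraries had trends of their own over the members, with Pearson correlations of 0.71 and 0.64 for shDNM1 replicates 2 and 3 and of -0.43, 0.55 and -0.42 for shControl replicates 1, 2 and 3. The points share the same libraries and depth, differences within a set are not independent of each other, and no p is given. CENPE, KIF14 and CDK1, with 35.3%, 38.3% and 37% GC, stood 0.87, 0.45 and 0.44 log2 units above the rest of the set in that library, while CDC20 and KIF2C, with 57.9% and 50.4% GC, stood at -0.38 and -0.32. Of the 10 members of lowest GC (35.3% to 39.4%), 9 were higher in that library, with a median of 0.37, and all 10 members of highest GC (50.4% to 60.5%) were lower, with a median of -0.21. Replicate 2 of shControl ran the other way, with 9 of the 10 members of lowest GC lower than in the rest of its set (median -0.21) and 9 of the 10 of highest GC higher (median 0.078). The shDNM1 over shControl change itself had a correlation of 0.19 with GC over the members. With the GC trend of all genes removed, an alternative added after the data were seen, 7 members were higher (ANLN, CKS2 and MKI67 added) and 9 were lower (BIRC5 added).

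**Figure D4:**
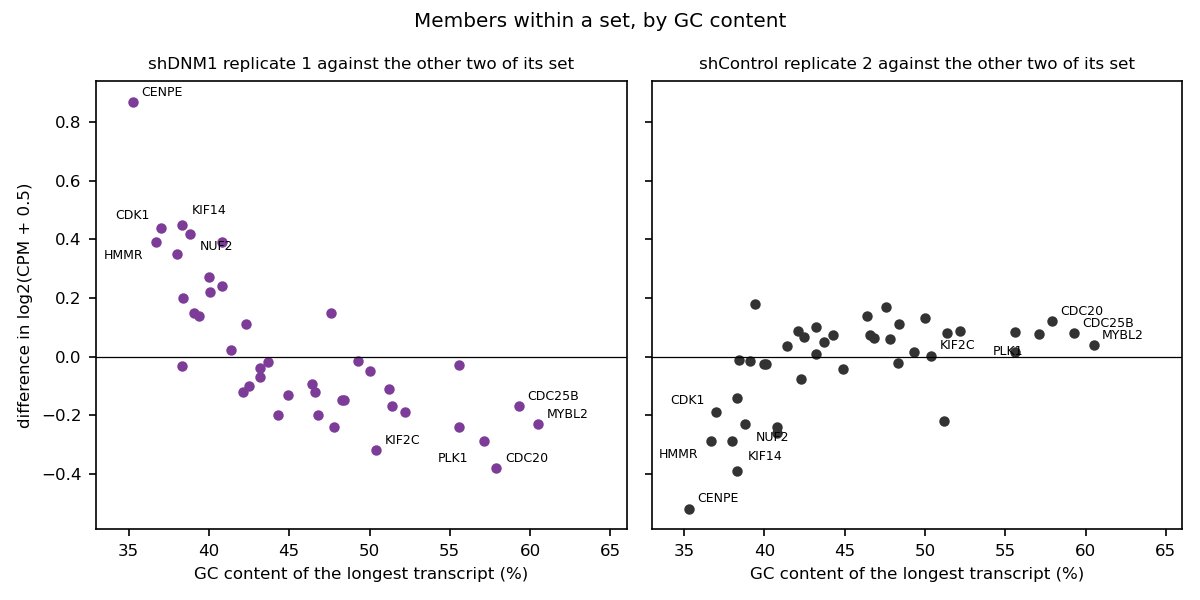
Difference in log2(CPM + 0.5) of 1 library from the mean of the other libraries of its set (vertical axis) against the GC content of the longest transcript in percent (horizontal axis), for 42 members, in shDNM1 replicate 1 (left) and shControl replicate 2 (right). At left the points fall with GC from CENPE at 0.87 to CDC20 at -0.38, and at right the lowest points are members of low GC.

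Summed over the 44 members, the libraries held 7310, 7399 and 7156 CPM in shDNM1 and 7164, 7062 and 7202 CPM in shControl. These sums overlapped, so the summed list took a like share of the counts in both sets. Such a sum weighs abundant members most, and these went both ways. Mean CPM in shDNM1 against shControl was 1023 against 915 for MKI67 and 694 against 431 for CDC25B. It was 838 against 1001 for TOP2A and 425 against 495 for CENPF.

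Genes of the same pathways outside the list were counted by groups. The other mitotic entry and exit regulators had 2 higher and 0 lower of 20, CDC25A (1.22-fold, adjusted p = 0.013) and TRIP13 (1.18-fold, 0.0234). The other kinesins had 4 higher and 2 lower of 14, with KIF1C at 1.39-fold (adjusted p = 1.28e-05) and KIF3A at 1.26-fold (0.00183), both cargo-carrying kinesins, and the mitotic KIFC1 at 0.729-fold (7.69e-05) and KIF15 at 0.828-fold (0.0283). The other kinetochore and centromere genes had 0 higher and 4 lower of 33 (12.1%), led by SKA2 at 0.573-fold (adjusted p = 6.3e-07) and ZWILCH at 0.72-fold (0.000614). Spindle and cytokinesis genes outside the list had 3 higher and 4 lower of 20, with HAUS8 at 1.24-fold (adjusted p = 0.0131), CEP55 at 1.17-fold (0.00853), TROAP at 0.718-fold (0.000103) and DEPDC1B at 0.747-fold (0.000424). Over these lists and those of the anaphase-promoting complex, condensin and cohesin, and DREAM, MuvB and NF-Y genes, 25% of 128 genes passed, beside 31.9% of all genes.

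Subunits of the anaphase-promoting complex had 4 higher and 2 lower of 15, including CDC23 at 1.25-fold (adjusted p = 0.00174), ANAPC11 at 1.23-fold (0.00664), ANAPC13 at 0.82-fold (0.0404) and ANAPC16 at 0.837-fold (0.00661). Of 13 condensin and cohesin genes, STAG1 alone passed, at 1.19-fold (adjusted p = 0.0371). The list of DREAM and MuvB genes, whose complexes bind CHR and E2F elements, also held the NF-Y subunits that bind CCAAT boxes. Its median log2 fold change was -0.18. The share that passed was 46.2%, beside 31.9% of all genes tested and 42.4% of those with an average log2 CPM of at least 4. It had 0 higher and 6 lower of 13. NFYB was the NF-Y subunit among the 6, at 0.79-fold (adjusted p = 0.0222). RBBP4, a histone-binding subunit, was at 0.567-fold (adjusted p = 1.76e-08) and TFDP2, a partner of E2F factors, at 0.68-fold (2.7e-05). The G1-S and DNA replication genes, which act earlier in the cycle, had 2 higher and 19 lower of 40, a median log2 fold change of -0.19. The share that passed was 52.5%, beside the same 31.9% of all genes and 42.4% of the more abundant ones. Among them were POLA2 at 1.29-fold (adjusted p = 0.00353), RRM2 at 1.19-fold (0.0106), GINS3 at 0.457-fold (9.8e-06) and GINS2 at 0.593-fold (1.62e-06). The median of the 43 tested G2-M and mitosis members was 0.008, and the difference between the lists was not tested.

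**Figure D5:**
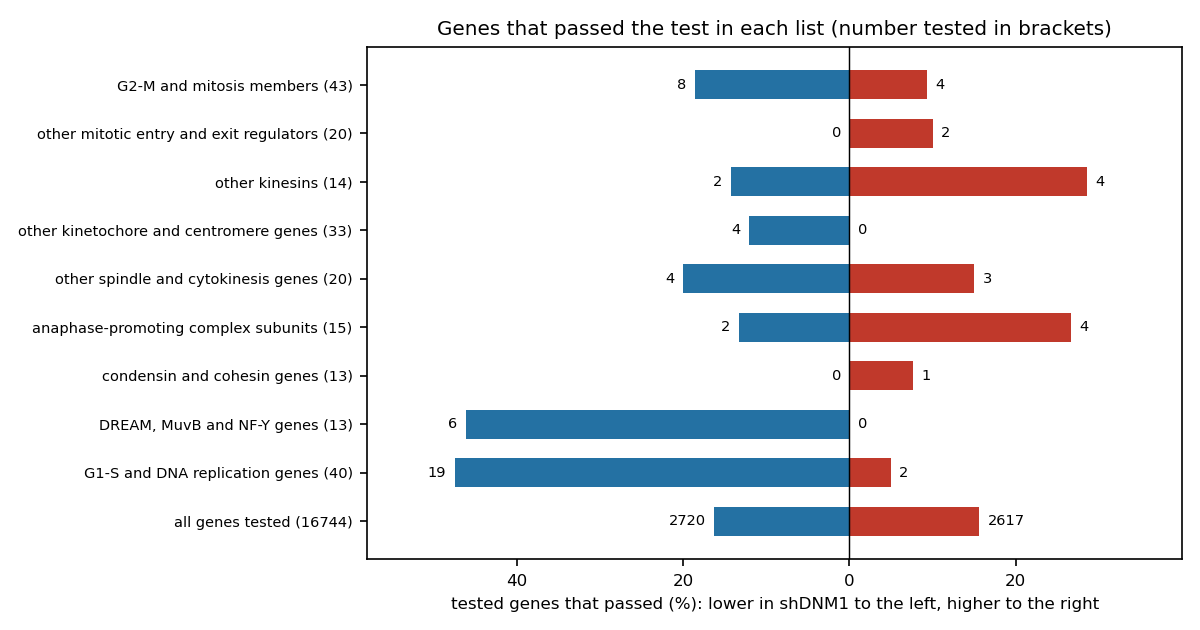
Share of tested genes in each list that passed the edgeR test, lower in shDNM1 to the left and higher to the right (percent, horizontal axis), with gene counts at the bar ends and the number tested in brackets. The members had 8 lower and 4 higher of 43, and the G1-S list had 19 lower and 2 higher of 40. All genes tested had 2720 lower and 2617 higher of 16744.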

How the data were processed

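RNA of 6 SW620 libraries was sequenced, and groups were taken from the sample titles. One deposited table holds raw counts of reads for each gene and library. Its build was GRCh38, per the submitters' processing notes. Which aligner, counter and annotation release the authors used, and whether counting used strand, is not given in the sources used here. TPM values deposited by the authors were handled as a score: their columns sum to more than 1000000 as deposited and to 1000000 over unique names. Each table had 62710 lines, and the 2328 lines that shared 453 names had identical values and were collapsed. Rows that name no gene numbered 0.

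Counts were compared with edgeR 4.0.16 in R 4.3.3: filterByExpr, TMM scaling and the two-sided quasi-likelihood F test, with Benjamini-Hochberg adjustment over 16744 genes and a threshold of 0.05. SE is the log2 fold change over the square root of F. The common biological coefficient of variation was 0.0743. The test was first run on simulated counts, drawn without the GC trends seen in these libraries. That run was not used to judge the members that did not pass. GC content came from the longest GENCODE 29 transcript, and promoter windows came from RefSeq. A replicate number names a library and was not taken to pair libraries between the sets in the main fit. Alternatives were other scalings, filters, DESeq2 1.42.0, limma 3.58.1 (voom, and log2 of TPM plus 1 or 0.1), a threshold of 0.01, the replicate block, single libraries left out, and GC and length trends removed. The last pair was added after the data were seen.

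Members and lists were chosen with earlier results of these data known. Every member is named. Values per library are given for members that passed and, in each role group, for the member of highest TPM and that of smallest p. In each other list the 2 largest rises and 2 largest falls that passed, at an average log2 CPM of at least 2, are named. Values given for other members in single libraries, for overlapping genes, for single cell type markers and for NFYB were chosen after their values were seen. No p is adjusted over the list alone. Libraries held 12844534 to 13537519 counts, and library-to-library spread beyond counting error (chi-square per gene of 2.28 to 7.13 within sets) enters every SE. Tables and figures were made in Python 3.11.15 (pandas 2.3.3, numpy 2.4.6, matplotlib 3.10.9).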

Additional observations from a re-analysis of the deposited data

How the results depend on the processing

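Under 18 alternatives, no member that passed changed sign, and CDC25B, PLK1, CDCA8 and TOP2A passed under all. The 4 higher members became 2 with log2(TPM + 1), 2 with log2(TPM + 0.1) and 7 with the GC trend removed (9 lower), and 3 to 8 when single libraries were left out. The 8 lower members became 3 at an adjusted p of 0.01, and 3 to 11 when single libraries were left out. DNM1 had a log2 fold change of -0.20 to -0.037 with single libraries left out, and of -0.22 (adjusted p = 0.0345) with the GC trend removed. CENPE had -0.34 to 0.22 with single libraries left out, and passed at -0.34 without shDNM1 replicate 1. The causes were not tested. Of the 31 tested members that did not pass, 13 changed sign and 12 passed under at least 1 alternative, MKI67 under 8 and BIRC5 under 7. With the replicate block, 5 were higher and 11 lower, with BIRC5, ECT2, HMMR and MKI67 added. Libraries of the same number had correlations of 0.102, 0.063 and -0.033 between the sets, and those of different numbers had -0.098 to 0.033. The values for replicates 1 and 2 were thus above those of all pairs of different number. The main fit did not pair libraries by number, and whether the numbers reflect shared handling was not tested. PRC1 and NUSAP1 rest on 177 and 47 counts, and batch cannot be told apart from vector.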
